A study of Mus musculus with 36 samples.

Results

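The genes described here are 9 regulators tied to lymphocyte anergy, the lasting unresponsiveness that follows incomplete activation. They comprise the ubiquitin ligases Cblb, Cbl, Itch, Nedd4, Rnf128 and Peli1, the diacylglycerol kinases Dgka and Dgkz, and Ndrg1. They were taken by exact gene symbol, and each had a row in all 4 deposited expression tables, so they made up 9 of the 32940 rows of the table of sorted subsets and 9 of the 56923 rows of each other table. All 9 had a mean of at least 1 TPM (transcripts per 1e6 transcripts, a level that accounts for transcript length) in the 3 tables that hold a comparison, and so all 9 were tested there.

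The study profiled RNA of mouse natural killer (NK) cells in 36 libraries, 3 in each of 12 groups. The first table held mature splenic NK cells, CD27-CD11b+, sorted by the presence of the inhibitory receptors Ly49C, Ly49I and NKG2A, which bind self MHC class I. TP cells had all 3, SP cells had only Ly49I, and TN cells had none. Each subset came from wild-type (WT) mice, which were B2m+/+ C57BL/6 (B6), and from B2m-/- mice (KO), which lack the light chain that MHC class I needs to reach the cell surface. The second table held NK cells sorted from WT splenocytes after 22 h in ionomycin, which carries calcium across membranes, or in its vehicle, and the third held NK cells from WT splenocytes after 48 h in medium or on plate-bound antibodies to NKp46 plus NKG2D or to NKp46 plus DNAM-1. The fourth held CD27-CD11b+ NK cells taken after 10 days from tumours of MC38, a mouse colon carcinoma line, here without B2m, grown under the skin of B6 mice, with no comparison group in its table. In both culture experiments the stimulus reached NK cells within whole splenocytes. Sex, age and the number of animals behind each library are not given in the sources used here, so p-values measure the spread between libraries labelled as biological replicates.

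Anergy in lymphocytes is held in part by enzymes that dismantle or starve the activating signal. Cbl-family, Nedd4-family and GRAIL ligases attach ubiquitin to receptors, kinases and adaptors below antigen and activating receptors, and diacylglycerol kinases convert diacylglycerol, the second messenger that opens the Ras and protein kinase C branches, into phosphatidic acid. In NK cells Cbl-b is known as a brake on cytotoxicity and cytokine release, and diacylglycerol kinases are known to restrain signalling from activating receptors. NK cells that lack inhibitory receptors for self MHC class I, or that mature without MHC class I, are known to respond weakly through activating receptors.

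The promoters of 3 genes are shown because their genes carried the differences described below: Cblb and Rnf128 in the ionomycin experiment and Peli1 between genotypes. The sequences are the 250 bases before the RefSeq transcription start on GRCm38.p6, read 5′ to 3′ on the gene's own strand, while the deposited values were made on another build. Cblb lies at chr16:52031299-52031548 on the + strand, Rnf128 at chrX:139610370-139610619 on the + strand and Peli1 at chr11:21091074-21091323 on the + strand. Capitals mark GGAAA or its reverse complement TTTCC, the core letters of sites bound by the calcium-driven factor NFAT, in Cblb and Rnf128, and GAANNTTC, the core of a heat-shock element, which reads the same on both strands, in Peli1.
Cblb: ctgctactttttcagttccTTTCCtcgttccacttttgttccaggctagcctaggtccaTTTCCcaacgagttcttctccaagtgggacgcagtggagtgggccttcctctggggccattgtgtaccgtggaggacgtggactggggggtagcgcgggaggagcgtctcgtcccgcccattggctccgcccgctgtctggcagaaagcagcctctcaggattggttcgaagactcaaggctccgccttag
Rnf128: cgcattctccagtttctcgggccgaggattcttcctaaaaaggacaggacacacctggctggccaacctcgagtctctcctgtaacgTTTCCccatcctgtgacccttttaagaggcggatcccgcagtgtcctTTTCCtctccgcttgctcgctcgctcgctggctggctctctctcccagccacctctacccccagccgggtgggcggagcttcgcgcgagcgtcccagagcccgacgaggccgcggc
Peli1: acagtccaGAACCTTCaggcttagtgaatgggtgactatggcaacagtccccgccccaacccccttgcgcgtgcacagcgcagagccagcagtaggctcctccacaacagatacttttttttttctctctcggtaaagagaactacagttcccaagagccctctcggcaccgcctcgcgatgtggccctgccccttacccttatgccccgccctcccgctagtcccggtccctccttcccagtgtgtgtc
Cblb held 2 NFAT core matches, at -231 and -191 from the start, and Rnf128 held 2, at -163 and -116. Of 32851 RefSeq mouse promoters of the same length, 55.6% held at least 1 such match and 21.4% held 2 or more, so the matches are common. Genes whose groups overlapped with ionomycin held from 0 to 3. Cbl held 3, Nedd4 held 2 at 1 of its 2 starts, and Dgka held 2 at 2 of its 4 starts. Dgkz held 1 at 1 of its 2 starts and 0 at the other, and Peli1 held 0. Peli1 held its single heat-shock element core at -242, and 6.69% of the same promoters held one. Entries were found for 7 of the 9 genes, with 12 start sites among them, and none for Itch and Ndrg1. A match is a string of letters only, and no binding was measured.

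All libraries had the RNA of NK cells. The 8 NK marker genes, Ncr1 and Eomes among them, were above 0 in every library, and their summed level was 10087 to 11465 TPM in the sorted subsets. In those 18 libraries the T cell gene Cd3e stayed at or below 1.25 TPM. The 7 T cell genes of the list of 8 that had a row summed to 4.04 to 18.2 TPM in WT and 9.58 to 24.0 TPM in KO. The KO TP libraries stood apart by 7 neutrophil genes, which summed to 47.2, 93.4 and 174 TPM against at most 3.16 TPM in the other 15 libraries, and by 5 plasma cell genes, which summed to 189 to 295 TPM against at most 110 TPM. Read depth is unknown because TPM values keep none; genes above 0 numbered 12290 to 14501 per library in the subsets, 13904 to 15483 in the ionomycin table, 13555 to 18096 in the antibody table and 14155 to 16271 in the tumour table. As in any bulk sample, fewer cells of a type and less RNA per cell cannot be told apart.

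In sorted resting NK cells Dgkz was the most abundant of the 9 and Rnf128 the least. Dgkz (ENSMUSG00000040479), the zeta kinase, lay between 358 and 489 TPM and was the highest of the 9 in 18 of 18 libraries. Cbl (ENSMUSG00000034342), the broadly expressed relative of Cblb, followed at 176 to 271 TPM. Dgka (ENSMUSG00000025357), the alpha kinase, at 98.9 to 148 TPM, overlapped with Nedd4 (ENSMUSG00000032216), Peli1 (ENSMUSG00000020134) and Cblb (ENSMUSG00000022637), so the order among these 4 neighbours did not exceed their spread, and Itch overlapped with the last 3.

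Nedd4, the founding HECT ligase of its family, ranged from 72.0 to 124 TPM, and Peli1, a Pellino ligase of Toll-like and antigen receptor signalling, from 66.7 to 142 TPM. Cblb itself stayed within 86.0 to 117 TPM, and Itch (ENSMUSG00000027598), the HECT ligase lost in itchy mice, within 69.5 to 92.2 TPM. Ndrg1 (ENSMUSG00000005125), a stress-induced gene described as a factor of T cell anergy, lay far lower at 3.14 to 29.9 TPM. Rnf128 (ENSMUSG00000031438), which encodes the membrane ligase GRAIL, lay at 1.09 to 9.73 TPM and was the lowest of the 9 in 18 of 18 libraries. Ndrg1 and Rnf128 also varied most relative to their means, with coefficients of variation of 45.7% and 60.7%, against 7.77% for Dgkz and 8.61% for Itch.

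**Figure D1:**
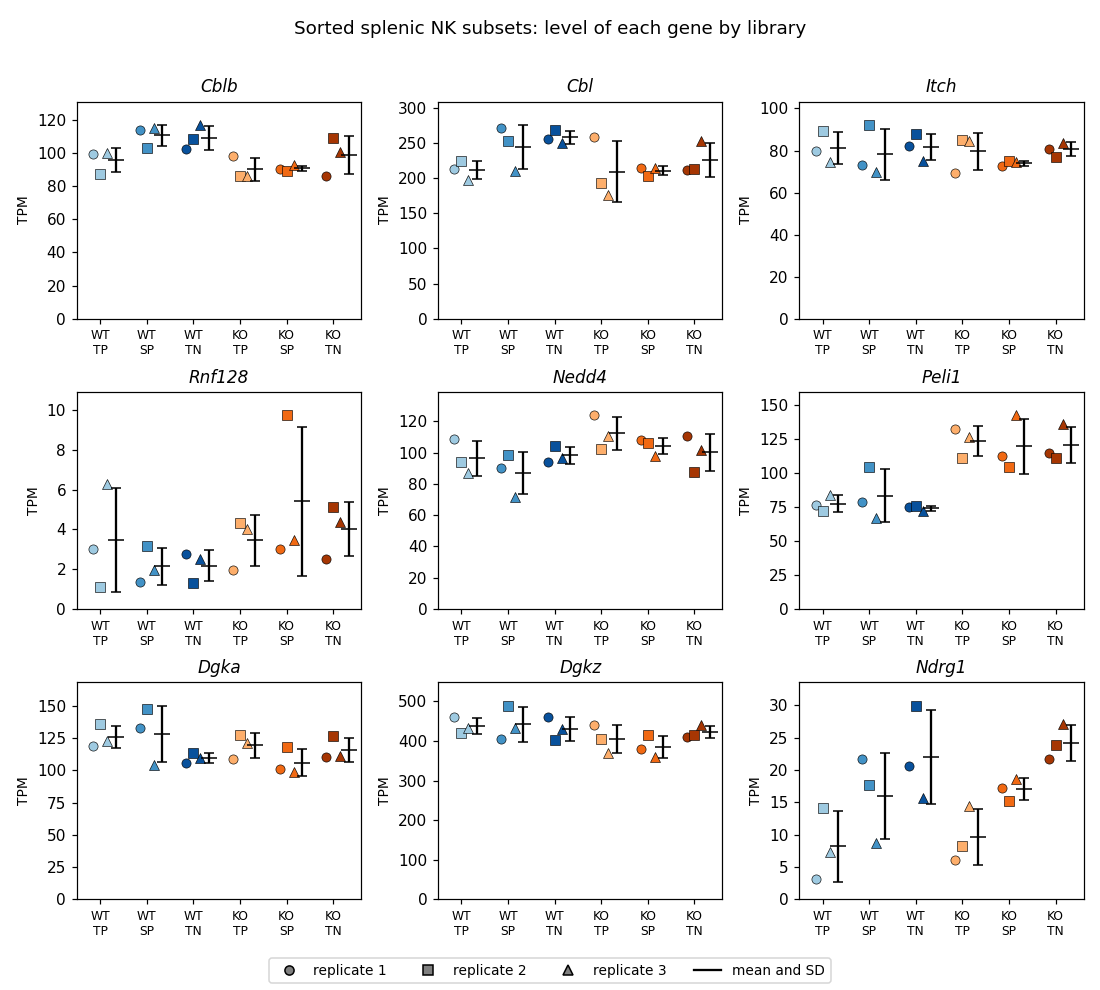
Level of each gene in TPM (y axis, linear, from 0) in the 18 libraries of sorted splenic NK cells, by genotype and subset (x axis); each point is a library, its shape gives the replicate number, and bars give the mean and SD of 3. Ndrg1 climbs from TP to TN in both genotypes, and Peli1 lies near 120 TPM in KO and mostly near 75 TPM in WT groups.

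The first question was whether NK cells without inhibitory receptors for self carried more of these brakes than cells with them. In WT mice none of the 9 genes passed the test between TN and TP cells, where 1.31% of 12018 genes did. The test was limma on log2(TPM + 1), two-sided, with Benjamini-Hochberg adjustment over all genes tested and a threshold of 0.05, and fold changes of low genes are understated on that scale. None of the 9 passed between SP and TP (0.191% of genes) or between TN and SP (0.383% of genes) either. At an unadjusted p under 0.05 stood 2 of the 9 for TN against TP, Ndrg1 and Cbl, where 12.5% of all genes did, 1 for SP against TP (7.71% of genes) and 0 for TN against SP (12.1%).

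Ndrg1 had the largest difference of the 9. In WT cells it was at 3.14, 14.1 and 7.40 TPM in TP, at 21.6, 17.6 and 8.74 TPM in SP, and at 20.5, 29.9 and 15.6 TPM in TN. Every TN library lay above every TP library, while SP overlapped with both. The TN minus TP difference was 1.47 on the log2 scale (SE 0.41), 22.0 ± 7.27 against 8.21 ± 5.52 TPM (SD, n = 3 each), with a limma adjusted p of 0.111. Single libraries moved this value: without WT TP replicate 2 it was 1.92 with an adjusted p of 0.0327, without WT TP replicate 1 it was 0.99 (adjusted p = 0.314), and without WT TN replicate 2 it was 1.23 (adjusted p = 0.266).

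B2m-/- cells showed the same order of Ndrg1 levels. There the gene was at 6.13, 8.27 and 14.4 TPM in TP, at 17.2, 15.2 and 18.6 TPM in SP, and at 21.6, 23.9 and 27.1 TPM in TN. The 3 subsets did not overlap in KO cells. Itch also lay higher in KO TN than in KO SP without overlap, at 80.9, 77.0 and 83.7 against 72.7, 74.8 and 74.6 TPM. The share of all genes that separated is not given for the KO subsets or for the averages. It is also not given for KO against WT in TP and TN cells. No separation in those comparisons can therefore be called unusual. The TN minus TP difference of Ndrg1 in KO cells was 1.32 (SE 0.41, limma adjusted p = 0.338). In that comparison 0.524% of genes and 0 of the 9 passed. Between SP and TP in KO cells 0.2% of genes and 0 of the 9 passed, and between TN and SP 0.0416% and 0. The difference of the 2 genotypes' differences was -0.15 (SE 0.59, limma adjusted p = 0.986), so its standard error was larger than the value.

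Averaged over both genotypes, a comparison added after the values were seen, Ndrg1 was higher in TN than in TP. It was at 23.1 ± 5.06 TPM in 6 TN libraries and 8.91 ± 4.49 TPM in 6 TP libraries, with no overlap, and the log2 difference was 1.39 (SE 0.29, limma adjusted p = 0.0162). Of the 9 genes it was the only one called in this average, where 1.89% of genes were. The call was lost without KO TP replicate 1 (1.27, adjusted p = 0.0502). Among the marker genes, Itgax, an integrin of mature NK and myeloid cells, rose by 0.82 in the same average and the proliferation gene Mki67 fell by 1.08, and the NK marker genes Eomes and Klrk1 rose by 0.54 and 0.26 while Prf1 (-0.29), Tbx21 (-0.27) and Ncr1 (-0.19) fell. The plasma and B cell genes Igkc (-4.08), Igha (-2.96) and Jchain (-2.39), the myeloid gene Lyz2 (-2.94) and 3 of the 4 tested neutrophil genes were also called lower in TN, and the B cell gene Ighm rose by 0.64. The neutrophil genes summed to 47.2 to 174 TPM in the KO TP libraries and to at most 1.11 TPM in the WT libraries of all subsets. The part of all these marker genes in the Ndrg1 difference was not tested.

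The ligases and kinases differed little between subsets. Cbl was at 250 to 269 TPM in WT TN and 198 to 224 TPM in WT TP, without overlap, and the difference of 0.29 (SE 0.13) had a limma adjusted p of 0.346. Cblb was at 102, 109 and 117 TPM in WT TN against 99.4, 87.3 and 100.3 TPM in WT TP, also without overlap, and its difference of 0.19 (SE 0.11) had an adjusted p of 0.486. Dgka lay the other way, at 106 to 114 TPM against 119 to 136 TPM (log2 difference -0.20, SE 0.12, adjusted p = 0.548). So 3 of the 9 lay higher without overlap and 1 lay lower, where 6.62% and 7.95% of all genes did. Itch, Nedd4, Peli1 and Dgkz differed by at most 0.06 in either direction, and Rnf128 by -0.34 with an SE of 0.49.

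Other genes of the same pathways gave few calls between WT TN and TP. In the diacylglycerol list, 1 of 20 tested genes rose and 0 fell: Dgkh, the eta diacylglycerol kinase, at 15.5 ± 3.14 against 4.44 ± 0.0551 TPM (SD, n = 3 each; log2 change 1.58, limma adjusted p = 0.00478). Among known ligase targets, 2 of 20 rose and 0 fell: Pik3r1, the regulatory subunit of PI3-kinase, by 0.43, and Fyn, a Src-family kinase, by 0.27. Of the related ligases (13 tested), the partners and E2 enzymes (17) and the anergy regulators (23), 0 passed. The median difference was 0.01 over the 9 genes and -0.01 over all genes tested.

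The second comparison asked what loss of B2m did to the same genes in each subset. Peli1 was the gene that stood out. It was at 76.4, 71.7 and 84.0 TPM in WT TP and at 133, 111 and 126 TPM in KO TP, so every KO library lay above every WT library. The rise of 0.67 (SE 0.15), 1.60-fold in TPM, had a limma adjusted p of 0.0326, and Peli1 was the only one of the 9 called, where 1.59% of genes were.

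In TN cells Peli1 was at 75.1, 75.4 and 71.7 TPM in WT and at 115, 111 and 136 TPM in KO. These groups did not overlap either, and the rise of 0.69 (SE 0.15) had a limma adjusted p of 0.0450, with 0.716% of genes called. In SP cells it was at 78.9, 104.6 and 66.7 TPM in WT and at 112, 104.0 and 142 TPM in KO. WT SP replicate 2 lay inside the KO range, and the difference of 0.53 (SE 0.15) had an adjusted p of 0.116; without that library it was 0.70 with an adjusted p of 0.0258. Of all genes, 1.35% were called in SP cells.

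The KO minus WT difference of Peli1 was not shown to depend on the subset: the TN and TP differences differed by 0.02 and the SP and TP differences by -0.14, each with an SE of 0.21 (limma adjusted p = 0.997 and 1). Averaged over the 3 subsets, a comparison added after the values were seen, Peli1 was at 121 ± 13.4 TPM in 9 KO libraries and 78.3 ± 11.0 TPM in 9 WT libraries. The log2 difference was 0.63 (SE 0.087, limma adjusted p = 0.000209), and Peli1 was the only one of the 9 called in a comparison that called 6.18% of genes. The labels do not say whether subsets were sorted from the same animals. The sum of 8 heat-shock genes was set apart in replicate 3 of every subset. It was 1610 to 1670 TPM in WT replicate 3 against 988 to 1311 TPM in the other WT libraries. In KO it was 3911 to 4005 TPM against 2288 to 2958 TPM. Over all genes, 0 of 18 same-numbered pairs had a correlation of deviations over 0.1. If each number is 1 animal, the 9 libraries of a genotype hold 3 independent animals, and the adjusted p treats them as 9.

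The calls within a single subset were fragile. The TP call was lost without the filter on low values (adjusted p = 0.0519), with size factors (0.0500144, just above the threshold), without the variance trend (0.0713), and without any 1 of 5 of its 6 libraries (0.0590 to 0.151), KO TP replicate 2 being the exception. The TN call was lost without the filter (0.0780), with size factors (0.0550), without the trend (0.0901), and without any of its 6 libraries (0.0861 to 0.212). In contrast the averaged call was kept in all alternatives run, including the fit without each of the 18 libraries. None of these left out all libraries of 1 replicate number.

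Heat-shock genes also lay higher in KO than in WT cells. Of 8 such genes, a list added after the values were seen, 6 rose in the KO minus WT average and 0 fell. They included Hsph1, a nucleotide exchange factor of HSP70, by 1.75, Dnajb1, its co-chaperone, by 1.09, and Hsp90aa1, the inducible HSP90, by 0.89. The 8 genes summed to 988 to 1670 TPM in the WT and 2288 to 4005 TPM in the KO libraries, with no overlap. Dnajb1 was at 34.2 to 54.4 TPM in WT and 68.0 to 119 TPM in KO. Of the T cell genes 1 of the 3 tested rose in the same average, Cd3g by 1.43. The KO TP libraries also held more of the neutrophil and plasma cell genes, and the TN libraries held at most 1.05 TPM of the neutrophil genes. The part of all these genes in the Peli1 difference was not tested. In the antibody experiment the 8 heat-shock genes summed to 4004 to 5162 TPM in the 6 stimulated libraries and 2725 to 3821 TPM in medium, where Peli1 was the higher. With ionomycin 1 of the 8 was called, Hsph1, which rose by 2.72. The 8 genes summed to 2576 to 3035 TPM there and 1448 to 4422 TPM with vehicle. Dnajb1 was at 50.1, 49.4 and 49.1 TPM against 49.5, 41.7 and 51.3 TPM, and Peli1 differed by 0.14. The part of heat-shock genes in the Peli1 levels of these 2 experiments was not tested.

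Over the 18 libraries the genes whose log2 levels ran most like Peli1 were Ccdc117 (Pearson r = 0.935), Rsrp1 (0.916) and Dnajb1 (0.906). The points share genotype and subset groups and a common normalisation, and the values are a description only.

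**Figure D2:**
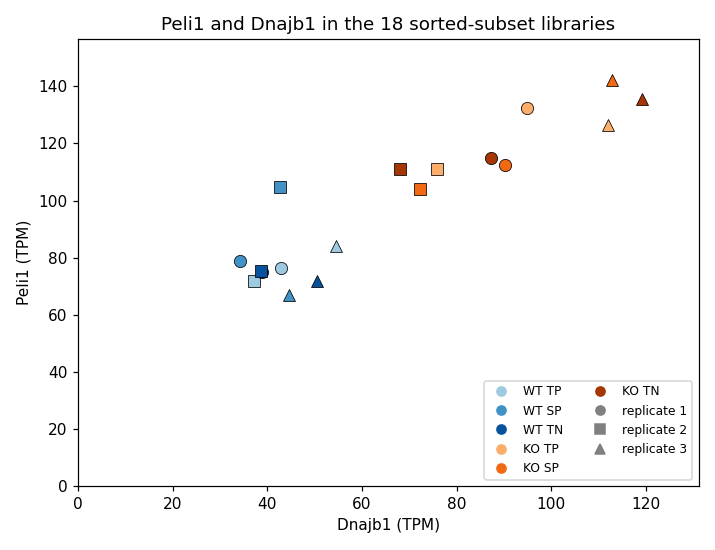
Peli1 (y axis, TPM) against Dnajb1 (x axis, TPM) in the 18 libraries of sorted subsets, one point per library, coloured by genotype and subset and shaped by replicate number. The 9 KO points lie to the right of the 9 WT points, and WT SP replicate 2 is the WT point at 104.6 TPM of Peli1.

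The remaining 8 genes did not pass between genotypes in any subset or in the average. Cblb had its largest difference in SP cells, with 114, 103 and 115 TPM in WT and 90.8, 89.6 and 92.6 TPM in KO. The KO group lay wholly below, as it did for 7.78% of genes, and the difference of -0.28 (SE 0.11) had a limma adjusted p of 0.281. In the average, Cblb differed by -0.17 (SE 0.061, adjusted p = 0.118), Dgkz by -0.11 (SE 0.051, adjusted p = 0.220) and Nedd4 by 0.17 (SE 0.075, adjusted p = 0.214). Cbl differed by -0.15, Dgka by -0.09, Itch by -0.04, Ndrg1 by 0.22 and Rnf128 by 0.56, the last with an SE of 0.29. The median over the 9 genes was -0.04 and over all genes 0.04.

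Of the pathway lists, the genotype average called genes in both directions. Among related ligases 1 of 13 rose and 0 fell. It was Rnf125, a RING ligase known from T cell activation, at 67.0 ± 7.46 against 40.3 ± 4.61 TPM (SD, n = 9 libraries each, log2 change 0.72, limma adjusted p = 3.54e-06). Rnf125 also rose within each subset, by 0.65 in TP, 0.92 in SP and 0.60 in TN. Among ligase targets 4 of 20 rose and 1 fell. Pik3r1 rose by 0.57, and Crtam, a surface receptor of activated NK and T cells, fell by 0.93. Jun, Syk and Fyn rose by 0.61, 0.15 and 0.12.

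The partners showed 1 of 17 higher and 2 lower. Ubash3b, a phosphatase that binds Cbl proteins, fell by 0.36, Ndfip2, an adaptor that recruits Nedd4-family ligases, fell by 0.43, and Usp7, a deubiquitinase, rose by 0.22. In the diacylglycerol list Rasgrp1, which carries the diacylglycerol signal to Ras, fell by 0.32 and Prkcd, a protein kinase C, rose by 0.20, among 20 tested. The anergy regulators had 0 of 23 higher and 4 lower, the activation-induced factors Egr3 (-1.31), Egr1 (-1.23), Nr4a1 (-0.83) and Nr4a3 (-0.65). Within the subsets 0 of the 23 passed in TP and in TN cells, and 3 were lower in SP cells, Egr1 (-2.33), Egr3 (-1.93) and Nr4a1 (-1.54). These factors are targets of calcium and MAP kinase signalling, and all were under 20 TPM on average in both genotypes.

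The third comparison was ionomycin against vehicle. Ionomycin forces calcium influx without the need for a receptor, a classical way of inducing anergy in T cells. Here it was given to whole splenocytes, and whether NK receptors were also engaged was not measured. Cblb was the one gene of the 9 that passed the test, and Rnf128 came close. Cblb was at 402, 381 and 354 TPM with ionomycin and at 75.7, 148 and 193 TPM with vehicle. The ionomycin libraries were close together and all far above the vehicle libraries, which were far apart from each other. The rise of 1.54 (SE 0.33), 379 ± 23.8 against 139 ± 59.4 TPM (SD, n = 3 each), had a limma adjusted p of 0.0452, where 2.91% of 14372 genes were called.

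Rnf128 was at 41.7, 52.6 and 66.7 TPM with ionomycin and at 4.21, 13.1 and 17.6 TPM with vehicle. These groups did not overlap, and the mean was 4.61-fold higher with ionomycin. The log2 difference of 2.27 (SE 0.50) was the largest of the 9, with a limma adjusted p of 0.0517, just above the threshold. It fell under the threshold with size factors (0.0317), with a replicate block (0.0297), and without Vehicle replicate 1 (0.0311) or Vehicle replicate 3 (0.0225). Cblb and Rnf128 were the only 2 of the 9 whose groups did not overlap, both higher, as 10.5% of all genes were.

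**Figure D3:**
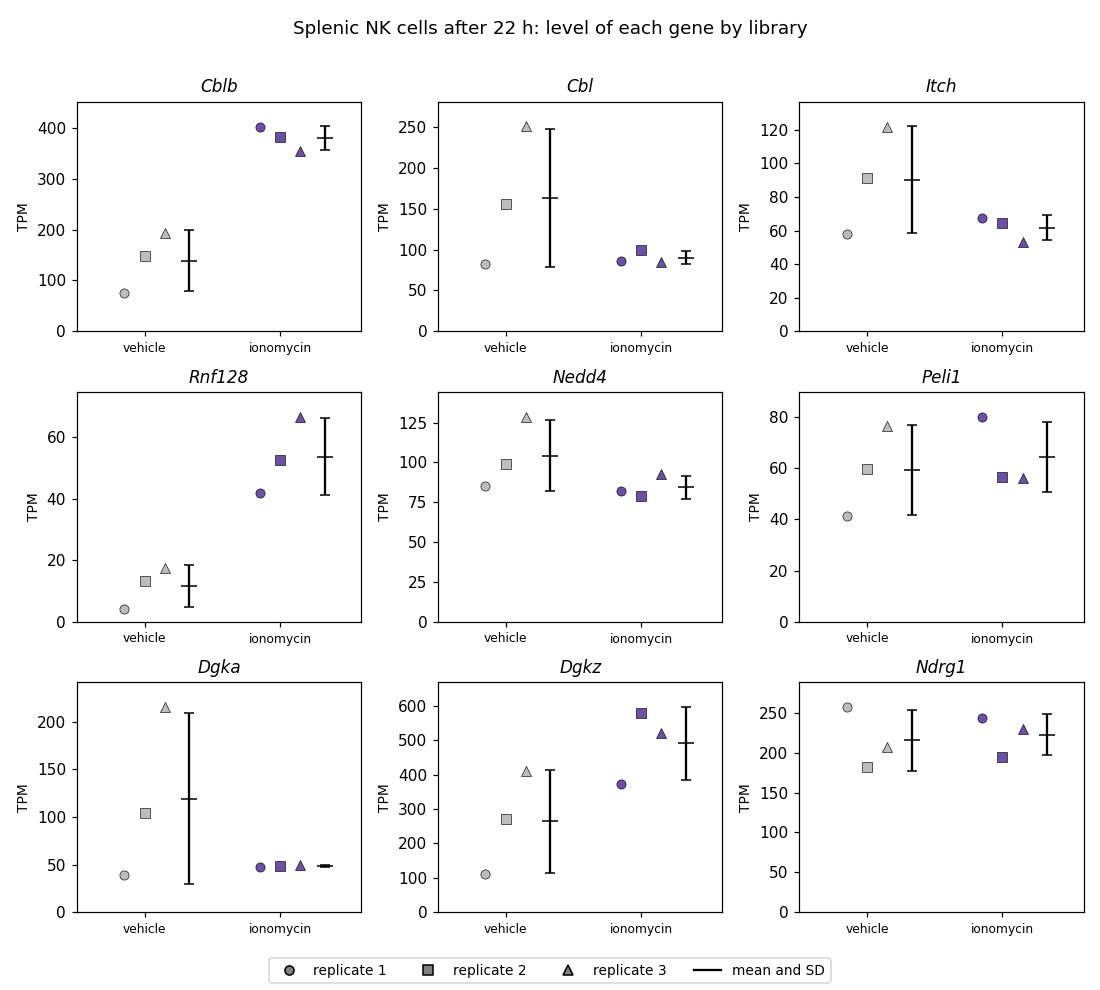
Level of each gene in TPM (y axis, linear, from 0) in the 3 vehicle and 3 ionomycin libraries (x axis); points are libraries, shapes give the replicate number, and bars give the mean and SD. Cblb and Rnf128 are the panels in which the ionomycin points lie wholly above the vehicle points. The vehicle points have the larger SD in every panel except Rnf128.

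The diacylglycerol kinases pointed in opposite directions without passing. Dgkz was at 374, 580 and 521 TPM with ionomycin against 112, 271 and 412 TPM with vehicle, a difference of 1.05 (SE 0.43, limma adjusted p = 0.296), and Vehicle replicate 3 lay above Ionomycin replicate 1. Dgka was at 47.4, 48.5 and 49.3 TPM with ionomycin against 38.5, 104 and 215 TPM with vehicle. Its ionomycin values were nearly identical while its vehicle values spread 5.59-fold, and the difference of -0.96 (SE 0.53) had an adjusted p of 0.459. Without Vehicle replicate 1, the library lowest in both kinases, Dgka differed by -1.61 with an adjusted p of 0.0348.

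Cbl and the HECT ligases also overlapped between treatments. Cbl was at 86.4, 98.8 and 84.9 TPM with ionomycin and 82.6, 155 and 251 TPM with vehicle (log2 difference -0.71, SE 0.37, limma adjusted p = 0.435). Itch was at 67.4, 64.5 and 53.3 against 58.0, 91.3 and 122 TPM (-0.48, SE 0.31), and Nedd4 at 82.0, 78.9 and 92.7 against 85.0, 98.7 and 129 TPM (-0.28, SE 0.24). In all 3 the vehicle group spanned most of the range and Vehicle replicate 3 was the highest library. Peli1 was at 80.0, 56.5 and 56.1 against 41.2, 59.5 and 76.3 TPM (0.14, SE 0.31).

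Ndrg1 was abundant in every library of this table and did not separate the treatments. It was at 243, 194 and 230 TPM with ionomycin and at 257, 182 and 208 TPM with vehicle (log2 difference 0.05, SE 0.21, limma adjusted p = 0.946).

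The vehicle libraries differed from each other in activation genes. Ifng, the main NK cytokine, was at 27588.5, 2522 and 82.4 TPM in Vehicle replicates 1, 2 and 3, against 1556, 1002 and 852 TPM with ionomycin. Il2ra, the activation-induced IL-2 receptor chain, was at 510, 124 and 15.3 TPM against 47.1, 13.6 and 5.32 TPM. Cblb, Rnf128, Cbl, Itch, Nedd4, Peli1, Dgka and Dgkz all had their lowest vehicle value in replicate 1 and their highest in replicate 3, the reverse of the Ifng order, and Ndrg1 alone of the 9 did not. Neutrophil genes summed to 314 TPM in Vehicle replicate 3 and 120 TPM in Ionomycin replicate 3, against at most 2.19 TPM in the other 4 libraries. With ionomycin 2 of the 8 NK marker genes fell, Ncr1 (-2.64) and Itga2 (-2.02). The sums of 7 T cell genes, at 14.4 to 29.8 against 2.39 to 13.8 TPM, did not overlap. Nor did the sums of 8 myeloid genes, at 274 to 421 against 87.6 to 215 TPM. The part of these differences in the results was not tested.

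Cblb kept its direction in every alternative but not its call. Its adjusted p was 0.0518 with a smaller pseudocount, 0.117 without the filter and 0.165 without the variance trend. It was 0.121 without Vehicle replicate 2 and 0.187 to 0.196 without any 1 ionomycin library, and 0.0134 and 0.0172 without Vehicle replicate 3 and 1.

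Around the ligases, ionomycin moved partners, targets and regulators in both directions. Among partners 2 of 17 rose and 1 fell: Ubash3b rose from 26.1 ± 11.2 to 259 ± 36.3 TPM (SD, n = 3 each; log2 change 3.35, limma adjusted p = 0.00294), Ndfip1, an activator of Itch and Nedd4, rose by 1.60, and Ubash3a, the lymphoid relative of Ubash3b, fell by 4.06. Among targets 2 of 19 rose, Pik3r1 by 2.33 and Zap70 by 1.95, and 4 fell, Plcg2 (-1.74), Syk (-1.57), Cd247 (-1.51) and Vav1 (-1.17). Zap70 and Syk are the tandem kinases that bind phosphorylated receptor chains such as Cd247, and they moved in opposite directions.

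In the diacylglycerol list 0 of 20 rose and 1 fell, Plcg2, a phospholipase that makes diacylglycerol. Of the 13 related ligases tested, 0 passed. Among anergy regulators 5 of 24 rose and 1 fell. The orphan nuclear receptors Nr4a2 and Nr4a3 rose by 6.26 and 5.13, the checkpoint receptor Lag3 by 4.35, and the Ikaros-family factors Ikzf2 and Ikzf1 by 2.18 and 1.01, while Egr1 fell by 1.43. The median difference was 0.05 over the 9 genes and 0.00 over all genes.

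The fourth set of comparisons was antibody stimulation for 48 h. For 6 of the 9 libraries the sample title and the column name in the deposited table give different groups, and the column names were used. With groups from the titles, limma called 0 genes for the NKG2D pair and 1 for the DNAM-1 pair, so the calls of this experiment rest on the column names. None of the 9 genes passed for NKp46 plus NKG2D against medium, where 0.431% of 13689 genes were called, or for NKp46 plus DNAM-1 against medium, where 0.782% were. At an unadjusted p under 0.05 stood 1 and 2 of the 9, where 15.1% and 18% of all genes did. Both comparisons share the medium libraries.

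Peli1 had the smallest p of the 9 in both pairs. It was at 105, 114 and 94.1 TPM in medium, at 79.4, 87.9 and 65.9 TPM with NKp46 plus NKG2D, and at 83.4, 80.3 and 74.6 TPM with NKp46 plus DNAM-1. Every medium library lay above every stimulated library. The differences were -0.43 and -0.39 (SE 0.14 each), with limma adjusted p of 0.207 and 0.202. With groups taken from the sample titles the Peli1 differences were 0.07 and -0.19.

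Few other genes separated the groups. Without overlap, 2 of the 9 lay lower for NKp46 plus NKG2D (Peli1 and Cbl), where 9.84% of genes did, and 3 for NKp46 plus DNAM-1 (Peli1, Dgka and Rnf128), where 11.6% did. Cbl was at 116, 140 and 125 TPM in medium, 99.8, 113 and 97.4 TPM with NKG2D and 118, 99.3 and 89.9 TPM with DNAM-1 antibodies added to NKp46. Rnf128 was at 3.65, 7.64 and 4.48 TPM in medium, 3.72, 2.12 and 1.70 TPM and 3.10, 1.07 and 2.54 TPM. Its differences of -0.82 and -0.96 had an SE of 0.44.

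Cblb, which rose with ionomycin, was at 132, 157 and 128 TPM in medium, 148, 161 and 156 TPM with NKp46 plus NKG2D and 159, 144 and 149 TPM with NKp46 plus DNAM-1. The medium and stimulated libraries overlapped, with differences of 0.16 and 0.12 (SE 0.11 each). Dgkz lay at 213 to 257 TPM in medium and 173 to 239 TPM over both antibody groups, Itch at 96.2 to 101 and 84.5 to 103 TPM, and Nedd4 at 85.5 to 117 and 102 to 124 TPM. Ndrg1 was at 32.5, 57.0 and 26.8 TPM in medium and between 25.5 and 36.3 TPM in the 6 stimulated libraries, with Medium replicate 2 the highest. Between the antibody pairs 0 of the 9 passed, where 0.0146% of all genes were called. Ndrg1 had the largest difference, -0.28 (SE 0.25, limma adjusted p = 1), and was the 1 gene of the 9 that lay lower without overlap with the DNAM-1 pair, as 3.46% of all genes did.

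**Figure D4:**
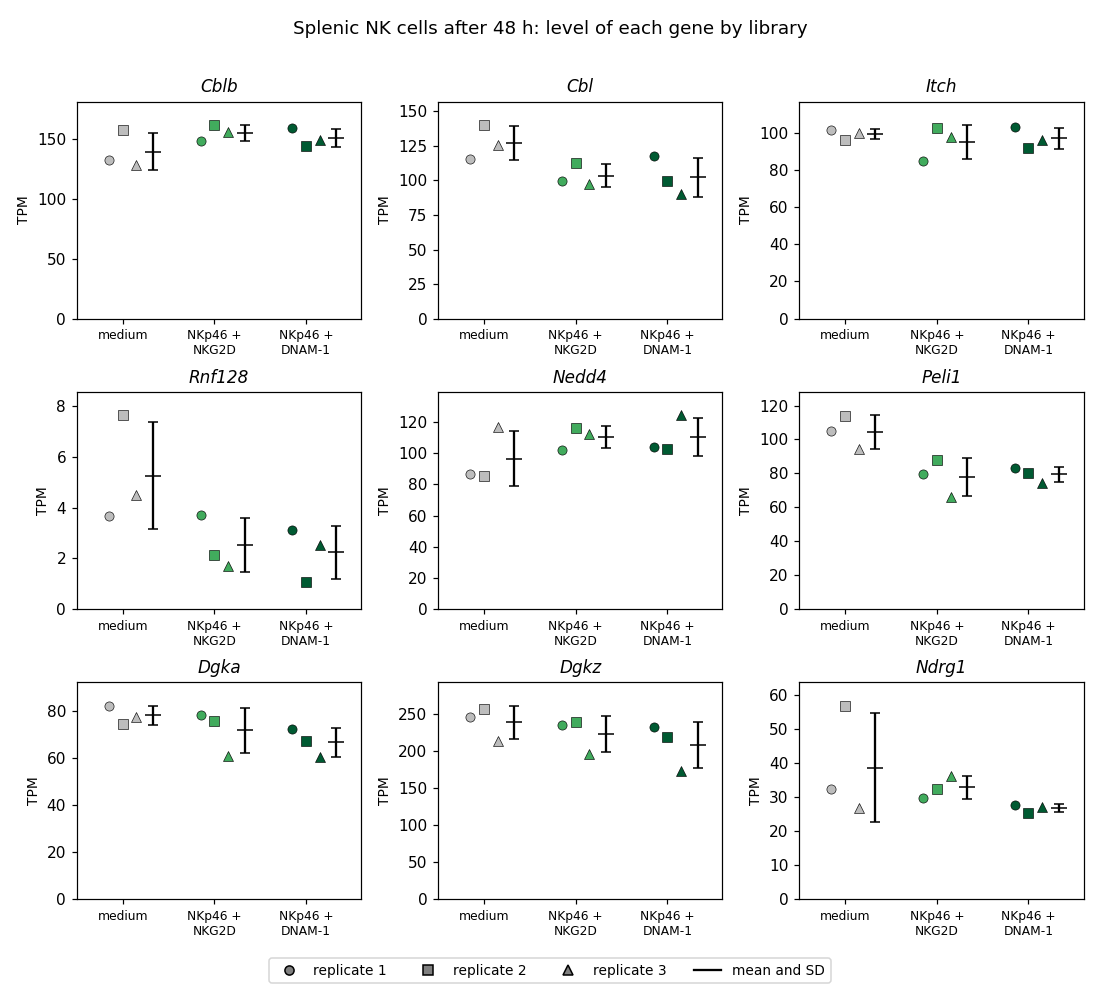
Level of each gene in TPM (y axis, linear, from 0) in medium, NKp46 plus NKG2D and NKp46 plus DNAM-1 libraries (x axis), 3 each, grouped by column name; points are libraries, shapes give the replicate number, and bars give the mean and SD. Peli1 is lower in all 6 stimulated libraries than in the 3 medium libraries, and Cblb overlaps.

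Among the anergy regulators calls went in both directions. With NKp46 plus NKG2D, 1 of 24 rose and 5 fell: Lag3 rose by 2.81, and the genes that fell were Egr1 (-2.64), Nr4a1 (-2.63), Egr2 (-2.59), Egr3 (-2.14) and Nr4a2 (-1.83). With NKp46 plus DNAM-1 the counts were again 1 and 5, with Lag3 up by 2.66. Of the targets, Junb, an AP-1 subunit, fell by 1.35 and 1.14, and Crtam rose by 0.76 with the DNAM-1 pair. Of the related ligases, partners and diacylglycerol genes (13, 17 and 20 tested) 0 passed in either comparison. Proliferation genes summed to 80.8 to 468 TPM in medium, 445 to 1062 TPM and 548 to 1129 TPM with antibodies, and T cell genes to 39.2 to 81.4 TPM in medium and 27.2 to 48.3 TPM with antibodies. Their part in the differences was not tested.

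Tumour NK cells have levels only, since no other group stands in their table. Dgkz was at 181, 137 and 178 TPM and Peli1 at 153, 115 and 125 TPM. Cblb was at 121, 126 and 100.4 TPM, Nedd4 at 64.3, 140 and 101 TPM and Cbl at 70.0, 110 and 88.1 TPM. These 5 genes overlapped or adjoined, so only Rnf128, at 1.31, 1.26 and 4.67 TPM, stood clearly apart below the rest.

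Itch was at 56.2, 61.4 and 65.2 TPM, Dgka at 43.0, 49.5 and 45.6 TPM, and Ndrg1 at 39.3, 66.9 and 70.3 TPM in the tumour libraries. Dgkz was the highest of the 9 in 2 of the 3 libraries and Nedd4 in 1. The 8 heat-shock genes summed to 8072 to 16690 TPM there, and globin and other erythroid genes to between 0 and 335 TPM. The column names of these libraries carry the tags B2MKO and SP, and the sample titles do not say whether these name the tumour or the NK cells.

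**Figure D5:**
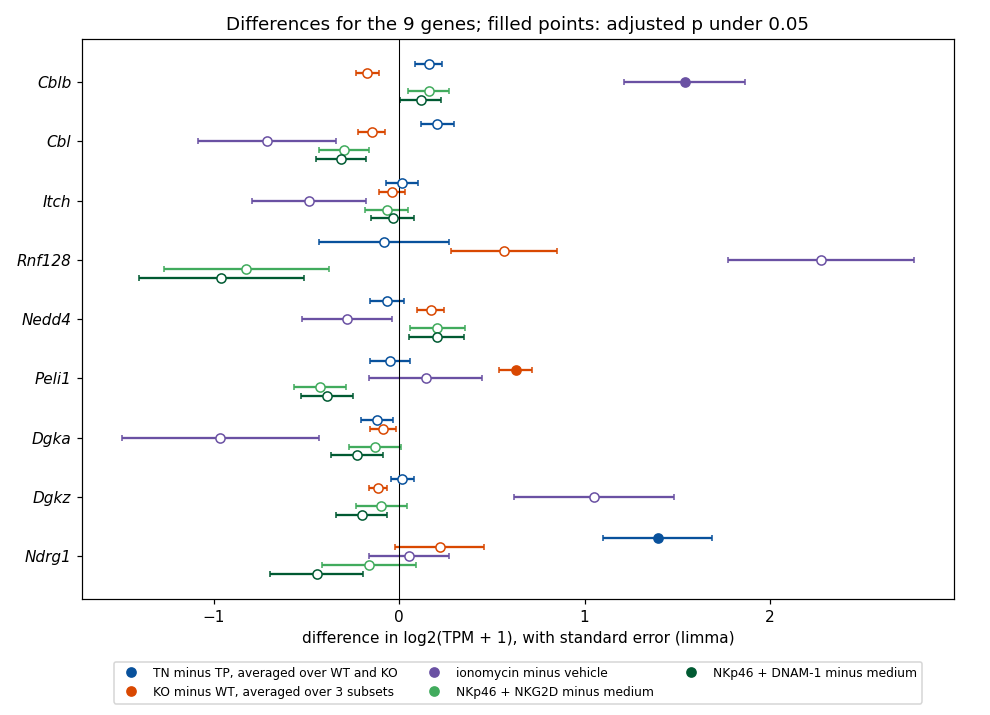
Difference in log2(TPM + 1) with its standard error (x axis) for each gene (y axis) in 5 comparisons, each from limma on its own table; filled points have an adjusted p under 0.05. Ndrg1 is filled in the TN minus TP average, Peli1 in the KO minus WT average and Cblb in ionomycin minus vehicle, and the other points are open.

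Set side by side, the 5 comparisons in the plot of differences each called at most 1 of the 9 genes. Ndrg1 was called in the TN minus TP average (1.89% of all genes), Peli1 in the KO minus WT average (6.18%) and Cblb with ionomycin (2.91%). The antibody pairs called 0 of the 9, and 0.431% and 0.782% of all genes. Both averages were added after the values were seen, and the Ndrg1 and Cblb calls were lost in some alternatives. The genes without a call in any of the 5 were Cbl, Itch, Nedd4, Rnf128, Dgka and Dgkz. Rnf128 lay just above the threshold with ionomycin.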

How the data were processed

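The authors deposited 4 tables of TPM values, in which STAR, RSEM and GRCm39 were used, per the submitters' processing notes; their versions and the annotation are not given in the sources used here. RNA was extracted with a miRNeasy Micro kit and libraries were made with a KAPA mRNA HyperPrep kit, per the labels' protocols. Columns were matched to samples through the column name in each sample's description. The members and lists were chosen with earlier results of these data known.

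TPM values are normalised within a library and keep no depth, so no counting interval was given. In each table, genes averaging 1 TPM or more were tested on log2(TPM + 1) with limma 3.58.1 in R 4.3.3, with a mean per group, an intensity trend and Benjamini-Hochberg adjustment over all genes. The code was also run on simulated data. All genes other than those changed had no difference, and each gene had the same normal spread in every group. Of 100 genes changed by 1 on the log2 scale, it recovered 57% for WT TN against TP and 59% for KO against WT in TP. It recovered 0% for ionomycin and 33% for NKp46 plus DNAM-1 against medium. Of 100 changed by 2, it recovered 85%, 91%, 24% and 78% in the same order. These shares hold for the simulated setting only. In the deposited values the spread differed between groups, as for Dgka, with an SD of 89.4 TPM with vehicle and 0.974 TPM with ionomycin. A missing call therefore does not show that a gene was unchanged. Named were all 9 genes, the called genes of the lists (at most the 8 largest per comparison), and for Peli1 and the other members at 10 TPM or more the 3 genes with the most alike levels. Alternatives were a pseudocount of 0.1, no filter, median-of-ratios size factors, no trend, a replicate block, each library left out, and, for the antibody table, groups by sample title. Same-numbered libraries did not pair by the rule used, a correlation of deviations over 0.1 in every pair. Both averages, the heat-shock list and the activation genes were added after the values were seen. Promoters came from RefSeq on GRCm38.p6 and were used for their letters only.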

Additional observations from a re-analysis of the deposited data

How the results depend on the processing

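Of the 9 genes, the number called was 1 for B2m-/- against WT in TP cells and became 0 without the filter on low values, with size factors and without the variance trend; leaving out 1 library gave 0 to 1. For TN cells the number was 1, became 0 under the same 3 settings, and was 0 without any 1 library. For SP cells and for WT TN against TP it was 0, and 0 to 1 without 1 library. For ionomycin it was 1, 0 with the pseudocount of 0.1, without the filter and without the trend, 2 with size factors, and 0 to 3 without 1 library. The TN minus TP average called 1, and 0 to 1 without 1 library. Over all genes, ionomycin called 418, against 185 without the filter, 172 without the trend and 43 to 712 without 1 library. NKp46 plus NKG2D against medium called 59 genes, 0 with groups by title and 31 to 311 without 1 library, and NKp46 plus DNAM-1 called 107, 45 without the filter, 1 by title and 26 to 604 without 1 library. B2m-/- SP against TP called 24 and 41 without the filter. The cause of these shifts was not tested. No called difference changed sign in any alternative; differences called in neither setting were not counted as directions.

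The replicate block gave 2 of the 9 genes for ionomycin, Cblb and Rnf128, and 477 genes in all, and moved no other count of the 9. Over all genes it gave 239 for NKp46 plus NKG2D and 528 for NKp46 plus DNAM-1; there Peli1 had adjusted p of 0.0971 and 0.101 in limma. Same-numbered libraries correlated over 0.1 in 1 of 3 pairs of the ionomycin table, 1 of 9 of the antibody table and 0 of 18 of the subset table. By the rule used the numbers were not taken as pairs, but that rule cannot show that the libraries are unpaired. In the antibody table each number in the column names occurs once in every group. Proliferation genes there summed to 80.8, 234 and 468 TPM in medium by number. They summed to 445, 544 and 1062 TPM with NKp46 plus NKG2D, and to 548, 628 and 1129 TPM with NKp46 plus DNAM-1. The labels do not say whether a number is 1 animal. TPM values carry no depth, and Rnf128 and WT TP Ndrg1 rest on levels of a few TPM, where counting error is largest but could not be given.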

Other observations

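Among genes tested in the sorted subsets, those whose log2 levels ran most like the other members over the 18 libraries were Egr3 (Pearson r = 0.816), Rassf2 and Cd55 for Cblb, and Klra10 (0.817), Cmah (0.812) and Gm7162 (0.791) for Ndrg1. Klra10 belongs to the Ly49 receptor family, whose members were used to sort the subsets. Nedd4 ran most like Cdk2ap2 (0.847), Pikfyve and Lck, Dgkz most like Orai2 (0.807), a calcium channel subunit, and Dgka most like Kif13a (0.800). Cbl and Itch had the weakest best matches, Pyroxd1 (0.769) and Pclaf (0.754). These libraries share genotype and subset groups, and the values are descriptions without a test.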
